A study of Mus musculus with 30 samples.

Results

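Native blood B cells were compared with native LKS-SLAM cells of bone marrow, a population enriched for haematopoietic stem cells, to find the genes gained and lost between the 2 populations. The comparison uses 6 of the 30 libraries of the series, 3 control B220+ libraries and 3 control LKS-SLAM libraries, taken from a table of 1 FPKM value (fragments per kilobase of transcript, scaled to the mapped fragments of the library) for each of 23060 genes. The control B cells were sorted from blood by B220, annotated as B cells of wild-type genotype and freshly isolated. The control LKS-SLAM cells came from bone marrow, were wild type and freshly isolated, and carry the annotation haematopoietic stem cell for replicates 1 and 2 and long-term haematopoietic stem cell for replicate 3. LKS stands for lineage-negative cells with Kit and Sca1 on their surface, and SLAM for a further selection on receptors of the SLAM family, whose names the labels do not give.

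Further groups of the same table place this comparison. The rEC groups are annotated as derived cells in place of a wild-type genotype, and the series is about adult endothelium converted to haematopoietic stem cells. Their B220+ blood cells and their marrow LKS-SLAM cells hold 3 libraries each, of which replicate 1 names no recipient, replicate 2 came from a primary recipient of clone 47G1 and replicate 3 from a secondary recipient. The other control blood cells were Cd3+Cd4+ cells (2 libraries), Cd3+Cd8+ cells (3 libraries) and Gr1+Cd11b+ myeloid cells (2 libraries), all wild type and freshly isolated. All cells were sorted by flow cytometry, and their poly-A RNA was sequenced without strand information as paired reads. Age, sex and strain are not given in the sources used here, nor is whether replicates came from separate or pooled mice. The p-values and standard errors therefore measure a spread between libraries, which may be technical in part. This spread was estimated jointly within 29 libraries in 11 groups of the series, among them groups not compared here. Wherever B cells are compared with LKS-SLAM cells, blood is compared with marrow, so that the tissue and the cell type cannot be told apart. In bulk libraries, fewer cells with a transcript and less of it per cell cannot be told apart either.

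Haematopoietic stem cells hold a network of transcription factors (Gata2, Tal1, Erg, Meis1, Hlf and Hox genes) and receptors for the niche and for cytokines (Kit, Tek). B lineage cells arise through lymphoid progenitors in which Ebf1 and Pax5 switch on the B cell receptor complex and close other lineages. Mature B cells circulate through blood and lymphoid organs, and carry the B cell receptor, chemokine receptors for follicle entry and class II molecules that present peptides to T cells.

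The labels were checked against marker genes before any comparison. The summed FPKM of 10 B cell markers (among them Cd79a, Cd79b, Ms4a1, Pax5, Ebf1, Blnk, Cd22, Fcer2a and Cr2) was 7751, 7123 and 7159 in control B replicates 1, 2 and 3, against 38.6, 44.0 and 144 in control LKS-SLAM replicates 1, 2 and 3. All values for 3 libraries below keep that replicate order. The sum of 12 LKS-SLAM markers was 318, 188 and 162 FPKM in control B cells, where 7, 7 and 3 of the 12 were listed at 0, against 1025, 993 and 868 FPKM in control LKS-SLAM cells. Most of the sum in B cells came from Ly6a, the gene of the Sca1 antigen used in the LKS gate. It stood at 309.7, 176 and 149.9 FPKM in control B cells, against 90.8, 65 and 108 FPKM in control LKS-SLAM cells. The groups did not overlap, yet the difference did not pass the test, at 1.22 ± 0.67 (limma, adjusted p = 0.129). Slamf1, a SLAM-family receptor also found on lymphocytes, stood at 8.33, 11.5 and 11.5 FPKM in control B cells, against 16.1, 15.6 and 9.34 FPKM in control LKS-SLAM cells, and its groups overlapped. Ptprc, the gene whose B220 splice form marks B cells, was detected in both populations at 258, 361 and 328 FPKM in control B cells, against 56, 57.4 and 77.6 FPKM in control LKS-SLAM cells. The table does not separate splice forms, so that it cannot show the B220 form.

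Some libraries stood apart from the others of their group. Control LKS-SLAM replicate 3 held the 10 B cell markers at a median of 1.86% of their mean in B cells (range 0.207 to 4.86%), against medians of 0.220% in replicate 1 and 0.264% in replicate 2. It also held more of the lymphoid progenitor genes Dntt and Flt3 and of Cd34. Eosinophil markers summed to 14.1, 16.0 and 16.9 FPKM in control B cells, with 6, 4 and 3 of the 9 markers at 0, against 2733, 5042 and 38.1 FPKM in control LKS-SLAM cells. Basophil markers summed to 1.65, 1.65 and 1.62 FPKM in control B cells, against 722, 538 and 17.7 FPKM in control LKS-SLAM cells. LKS-SLAM replicates 1 and 2 thus held transcripts of these cells that replicate 3 held little of. All 3 control LKS-SLAM libraries held genes of the neutrophil list, with sums of 7.57, 1.31 and 23.7 FPKM in control B cells, against 3873, 3290 and 2278 FPKM in control LKS-SLAM cells. Control B replicate 1 had more immediate early and ribosomal protein transcripts than the other 2 control B libraries. Its FPKM summed over all genes to 658273, against 526342 and 525551 in control B replicates 2 and 3. Genes at 1 FPKM or more numbered 10433 to 10450 per control B library, against 12168 to 12550 per control LKS-SLAM library. The deposited values give no read counts. Ratios of values below 0.1 FPKM gave an estimate of depth relative to control B replicate 2, which was 0.907 and 0.918 for control B replicates 1 and 3, against 0.972, 1.03 and 0.587 for control LKS-SLAM replicates 1, 2 and 3.

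**Figure D1:**
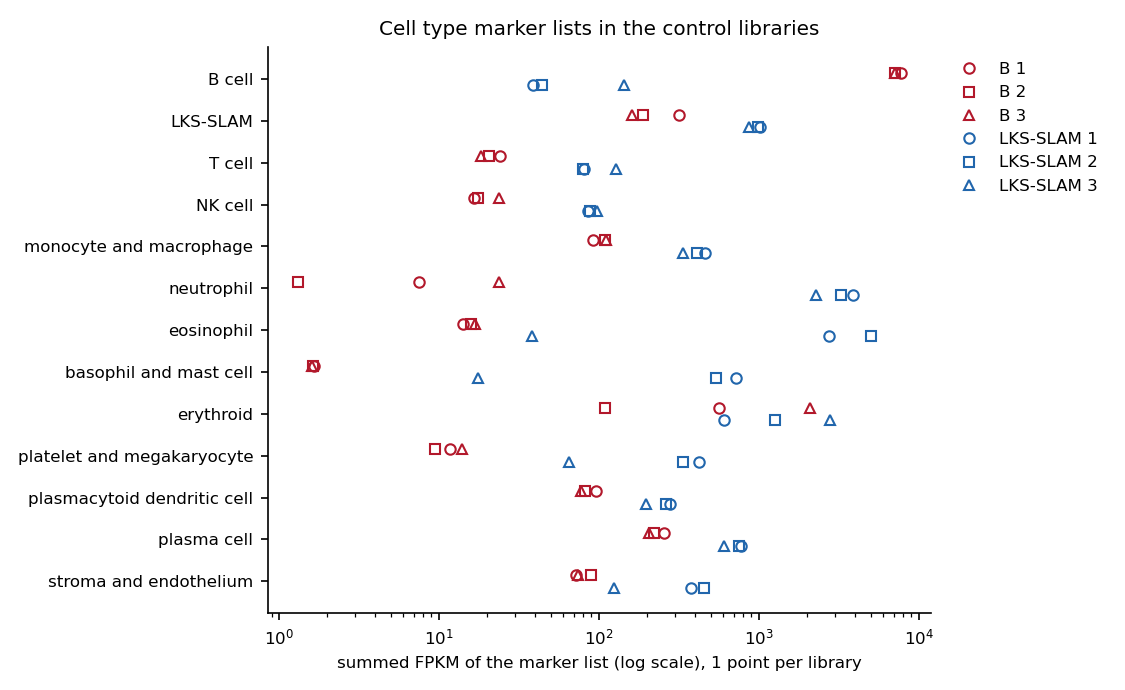
Summed FPKM of marker lists in each library (log axis), control B cells in red and control LKS-SLAM cells in blue, 1 point per library. The B cell markers stand at 7123 to 7751 FPKM in the 3 B libraries, against 38.6 to 144 FPKM in the 3 LKS-SLAM libraries, and the eosinophil and basophil lists split LKS-SLAM replicates 1 and 2 from replicate 3.

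Promoter sequences of 6 genes that were higher in B cells are shown because each holds, letter for letter, a motif known from B cells or from class II genes. All are RefSeq sequences of GRCm38.p6 with 250 bases before and 50 bases after the annotated start, printed 5′ to 3′ on the strand of the gene. H2-Aa (chr17:34287774-34288073, minus strand), H2-Eb1 (chr17:34305617-34305916, plus strand) and H2-Oa (chr17:34092129-34092428, plus strand) encode class II chains, and the capitals mark the Y box letters CTGATTGG, which begin 51, 62 and 46 bases before the start. Blnk (chr19:40994172-40994471, minus strand), the adaptor of the B cell receptor, and Vpreb3 (chr10:75948050-75948349, plus strand), of the pre-B receptor family, hold the octamer ATGCAAAT on the opposite strand, 130 and 45 bases before the start, so that the capitals read ATTTGCAT. Cd22 (chr7:30878979-30879278, minus strand), an inhibitory receptor, holds the EBF1 motif 49 bases before the start. This motif is TCCC and GGGA with any 2 bases between them, so that the pattern, but not its middle letters, matches on both strands.
H2-Aa: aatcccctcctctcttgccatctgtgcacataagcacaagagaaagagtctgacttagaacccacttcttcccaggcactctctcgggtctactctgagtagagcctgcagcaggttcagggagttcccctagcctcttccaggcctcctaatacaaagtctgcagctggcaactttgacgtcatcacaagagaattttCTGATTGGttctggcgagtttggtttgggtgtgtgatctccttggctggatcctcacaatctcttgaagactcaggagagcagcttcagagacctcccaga
H2-Eb1: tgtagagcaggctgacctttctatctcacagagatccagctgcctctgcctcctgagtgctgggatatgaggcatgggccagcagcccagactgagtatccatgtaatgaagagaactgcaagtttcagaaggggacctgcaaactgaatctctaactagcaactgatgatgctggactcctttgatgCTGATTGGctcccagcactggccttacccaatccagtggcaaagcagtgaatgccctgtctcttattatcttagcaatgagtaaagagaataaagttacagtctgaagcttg
H2-Oa: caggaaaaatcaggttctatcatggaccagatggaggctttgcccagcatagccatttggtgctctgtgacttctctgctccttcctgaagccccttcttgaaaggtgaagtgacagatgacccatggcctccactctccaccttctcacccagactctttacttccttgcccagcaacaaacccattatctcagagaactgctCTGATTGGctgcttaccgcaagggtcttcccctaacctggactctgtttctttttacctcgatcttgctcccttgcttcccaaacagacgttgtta
Blnk: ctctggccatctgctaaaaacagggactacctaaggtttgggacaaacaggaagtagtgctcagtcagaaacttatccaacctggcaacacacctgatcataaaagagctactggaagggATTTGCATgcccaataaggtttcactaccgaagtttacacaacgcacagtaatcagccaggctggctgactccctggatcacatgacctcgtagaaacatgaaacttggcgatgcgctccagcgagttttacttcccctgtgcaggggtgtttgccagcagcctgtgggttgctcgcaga
Vpreb3: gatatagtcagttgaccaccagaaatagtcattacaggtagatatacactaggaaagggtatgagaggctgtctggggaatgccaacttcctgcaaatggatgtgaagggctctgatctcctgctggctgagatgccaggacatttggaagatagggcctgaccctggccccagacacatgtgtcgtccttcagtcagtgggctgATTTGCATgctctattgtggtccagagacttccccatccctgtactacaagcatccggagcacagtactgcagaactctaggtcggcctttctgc
Cd22: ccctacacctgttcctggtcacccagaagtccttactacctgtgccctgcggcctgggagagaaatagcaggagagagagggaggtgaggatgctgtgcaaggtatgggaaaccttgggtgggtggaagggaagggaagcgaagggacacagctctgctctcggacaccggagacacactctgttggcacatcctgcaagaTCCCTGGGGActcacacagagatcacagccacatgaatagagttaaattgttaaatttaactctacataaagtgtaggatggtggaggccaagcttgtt

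The motifs were searched on both strands, without mismatch, and none of the 4 overlapped another in these 6 windows. Over all 32851 promoters of the same length (27025 genes), the Y box letters occurred in 4.10%, the octamer in 1.74%, the EBF1 motif in 0.904% and the GATA motif AGATAAG in 3.04%. These shares are of promoters, while the list counts below are of genes with any promoter that holds the motif. Of the 13 class II list genes, 10 had a promoter entry (11 promoters). Of these genes, 4 held the Y box letters (H2-Aa, H2-Eb1, H2-Eb2 and H2-Oa). Of the 30 genes of the B cell receptor list, 24 had an entry (29 promoters), and 2 held the octamer (Blnk and Prkcb) and 1 the EBF1 motif (Cd22). Lists mostly lower in B cells held these motifs too. The Y box letters occurred in 5 of 29 cell cycle genes and the EBF1 motif in 2 of 18 stem cell transcription factors (Gata1 and Mecom). The octamer occurred in 1 of 18 immediate early genes (Egr2) and 1 of 19 stem cell receptors and enzymes (Aldh1a1). A match of letters is a description of the sequence and no evidence of binding.

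Of 14083 genes tested, 7832 (55.6%) differed between control B cells and control LKS-SLAM cells by limma at an adjusted p below 0.05, of which 2657 (18.9%) were higher and 5175 (36.7%) lower in B cells. All differences below are control B minus control LKS-SLAM on the log2(FPKM + 1) scale, with 3 libraries each, and this scale understates the change of low genes. Their standard errors come from the spread shared by all 11 groups of the fit. They can thus exceed the spread of the printed control values. The median over all genes tested was -0.25. After quantile normalisation, which gives every library the same distribution, that median was 0.08 and the split became 4552 higher and 3584 lower genes. The ratio of higher to lower calls thus depends on the scaling, and small differences near the median are to be read relative to it. Larger differences were also more often losses in B cells, with 1314 genes higher and 3520 lower by at least 1 on the log2 scale, and 101 higher and 354 lower by at least 4. With no overlap between the libraries of the groups stood 3290 genes (23.4%) that were higher in B cells and 5944 (42.2%) that were lower. At 5 FPKM or more in all 3 B libraries and under 0.5 FPKM in all 3 LKS-SLAM libraries stood 25 genes, and 57 when LKS-SLAM replicate 3 was left aside, while 540 genes had the reverse pattern.

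**Figure D2:**
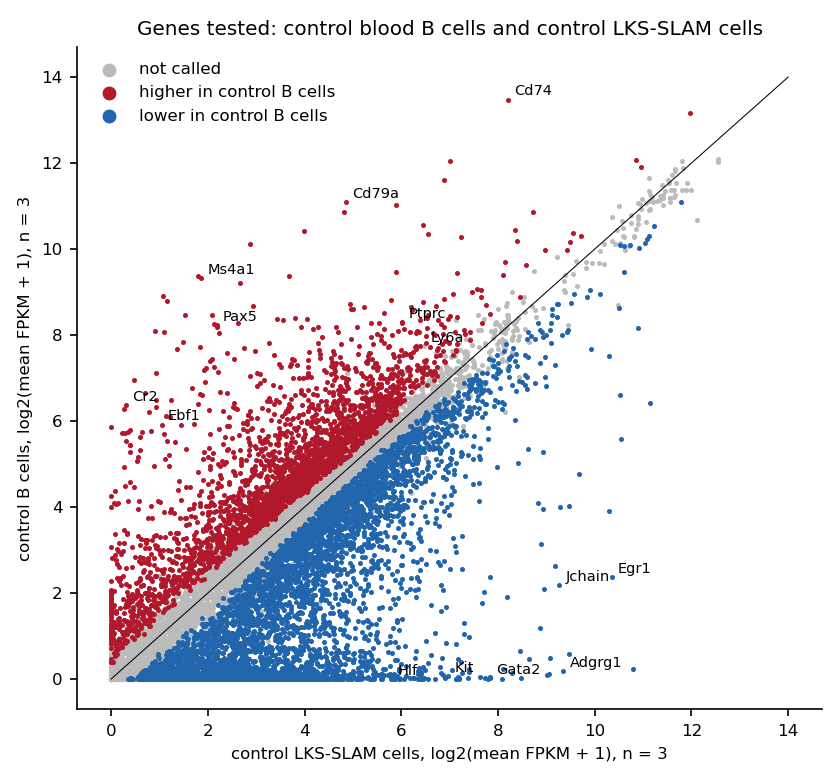
Mean level of each tested gene in control B cells (y axis) and in control LKS-SLAM cells (x axis), both as log2(mean FPKM + 1), with genes higher in B cells in red, lower in blue and not called in grey. Most coloured points lie below the diagonal, and the column of blue points along the x axis holds stem cell genes such as Hlf, Gata2 and Kit, at or near 0 FPKM in B cells.

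The main genes described below lie, in GRCm38 with the GENCODE vM21 annotation, at chromosome 19, 11249675 to 11266241 (Ms4a1), at chromosome 4, 44524757 to 44710487 (Pax5), at chromosome 6, 88193891 to 88207032 (Gata2), at chromosome 5, 75574916 to 75656722 (Kit) and at chromosome 8, 94974751 to 95014217 (Adgrg1). An FPKM value covers the exons of the whole gene.

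The B cell receptor complex and its signalling proteins formed a nearly uniform block. Of 30 genes tested, 27 were higher in B cells, 1 was lower and 2 did not pass, with a median difference of 3.26. The receptor's signal-transducing chains led in level. Cd79a stood at 2455, 2007 and 2055 FPKM in control B cells, against 16.5, 19.2 and 48.1 FPKM in control LKS-SLAM cells, a difference of 6.38 ± 0.75 (limma, adjusted p = 3.27e-07). Cd79b stood at 2075, 1738 and 1774 FPKM in control B cells, against 17.7, 19.4 and 44.3 FPKM in control LKS-SLAM cells, a difference of 6.17 ± 0.51 (limma, adjusted p = 1.70e-09). Both were well separated, and LKS-SLAM replicate 3 was the highest of its group for both. Cr2, a complement receptor of B cells, had 69.8, 88.3 and 88.8 FPKM in control B cells, against 0.232, 0.297 and 0.17 FPKM in control LKS-SLAM cells, a difference of 6.07 ± 0.37 (limma, adjusted p = 2.04e-11). In Cr2, unlike the receptor chains, LKS-SLAM replicate 3 was the lowest of its group. Cd81, a tetraspanin of many cell types, had 118, 107 and 118 FPKM in control B cells, against 118, 99.8 and 84.3 FPKM in control LKS-SLAM cells and overlapped between the groups, at 0.19 ± 0.37 (limma, adjusted p = 0.688).

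Kinases and adaptors downstream of the receptor differed by type. Blk, a Src-family kinase of B cells, had 288, 277 and 244 FPKM in control B cells, against 0.0905, 0.239 and 3.07 FPKM in control LKS-SLAM cells, a difference of 7.26 ± 0.56 (limma, adjusted p = 6.12e-10). Lyn and Syk, used by many blood cells, were already present in LKS-SLAM cells, with Syk at 392, 392 and 425 FPKM in control B cells, against 34.6, 32.3 and 43.2 FPKM in control LKS-SLAM cells, a difference of 3.43 ± 0.47 (limma, adjusted p = 2.60e-06). Btk, the Tec-family kinase, had 118, 134 and 129 FPKM in control B cells, against 37.8, 37.9 and 37.2 FPKM in control LKS-SLAM cells, a smaller difference of 1.73 ± 0.38 (limma, adjusted p = 0.000556). The adaptors did not share a direction. Blnk had 217, 176 and 184 FPKM in control B cells, against 1.98, 1.56 and 9.33 FPKM in control LKS-SLAM cells, a difference of 5.49 ± 0.53 (limma, adjusted p = 1.94e-08). Lcp2, the related adaptor that works with Lat in T cells, platelets and mast cells, ran the other way at 0.21, 0.14 and 0.304 FPKM in control B cells, against 42.6, 41 and 32.5 FPKM in control LKS-SLAM cells, a difference of -5.02 ± 0.84 (limma, adjusted p = 3.17e-05). Lat itself had 1.71, 1.56 and 1.59 FPKM in control B cells, against 63.9, 63.8 and 62.3 FPKM in control LKS-SLAM cells, a difference of -4.62 ± 1.04 (limma, adjusted p = 0.000747). Grap2, an adaptor that binds Lcp2, was higher in B cells at 53.9, 67.4 and 60.0 FPKM in control B cells, against 1.59, 2.15 and 3.14 FPKM in control LKS-SLAM cells, a difference of 4.24 ± 0.29 (limma, adjusted p = 1.34e-10). Of the 12 T cell markers, Lat alone was called, and the other 11 passed in neither direction. All 3 LKS-SLAM libraries held Lcp2 and Lat at similar levels, and no B library came near them. Any part of eosinophils or other myeloid cells in these values was not tested. Plcg2, the phospholipase that Blnk brings to the receptor, was high in both populations at 106, 134 and 131 FPKM in control B cells, against 105, 88.2 and 89 FPKM in control LKS-SLAM cells. Its groups did not overlap, but it did not pass the test, at 0.39 ± 0.54 (limma, adjusted p = 0.572). The only lower member was Dapp1, an adaptor that binds membrane phosphoinositides, at 46.3, 39.6 and 43.5 FPKM in control B cells, against 134, 123 and 112 FPKM in control LKS-SLAM cells, a difference of -1.49 ± 0.28 (limma, adjusted p = 0.000101).

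The inhibitory receptors of the B cell were higher along with the activating ones. Cd22, a sialic-acid-binding receptor that restrains signalling, had 425, 469 and 432 FPKM in control B cells, against 0.283, 0.463 and 2.93 FPKM in control LKS-SLAM cells, a difference of 7.83 ± 0.43 (limma, adjusted p = 3.03e-12). Siglecg, of the same family, had 419, 395 and 407 FPKM in control B cells, against 5.91, 4.09 and 10.1 FPKM in control LKS-SLAM cells, a difference of 5.8 ± 0.54 (limma, adjusted p = 1.14e-08). Fcgr2b, the inhibitory receptor for IgG, had 148, 126 and 118 FPKM in control B cells, against 20.8, 15.8 and 11 FPKM in control LKS-SLAM cells, a difference of 3.0 ± 0.43 (limma, adjusted p = 4.51e-06). None of these overlapped between the groups. Bank1, a scaffold of B cell receptor signalling, differed by 6.58 ± 0.52 (limma, adjusted p = 9.83e-10) and Fcrla, an intracellular Fc receptor-like protein, by 6.08 ± 0.57 (limma, adjusted p = 1.22e-08). Malt1, which carries the signal to NF-kB, stood at 73.2, 94.8 and 100.1 FPKM in control B cells, against 9.04, 10.0 and 9.7 FPKM in control LKS-SLAM cells, a difference of 3.08 ± 0.26 (limma, adjusted p = 3.14e-09).

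Of 18 B cell transcription factors, 13 were higher in B cells, none was lower and 5 did not pass, with a median of 2.63. Pax5, which fixes B cell identity, had 334, 274 and 287 FPKM in control B cells, against 0.0826, 0 and 10.5 FPKM in control LKS-SLAM cells, a difference of 7.01 ± 0.7 (limma, adjusted p = 3.48e-08). Nearly all Pax5 of the LKS-SLAM group was in replicate 3. Without that library the difference was 8.16 (limma, adjusted p = 3.83e-10), and against that library alone, assumed to vary like the other groups, 4.7 (limma, adjusted p = 6.69e-05). Ebf1, which acts with Pax5, had 40.4, 72.1 and 66.1 FPKM in control B cells, against 0.459, 0.356 and 2.37 FPKM in control LKS-SLAM cells, a difference of 4.96 ± 0.48 (limma, adjusted p = 2.24e-08). Spib, an Ets factor of B cells and plasmacytoid dendritic cells, had 275, 349 and 439 FPKM in control B cells, against 0.668, 0.646 and 8.49 FPKM in control LKS-SLAM cells, a difference of 6.88 ± 0.66 (limma, adjusted p = 1.88e-08). Pou2af1, the co-activator bound at octamers, had 325, 322 and 344 FPKM in control B cells, against 3.34, 3.88 and 22 FPKM in control LKS-SLAM cells, a difference of 5.4 ± 0.59 (limma, adjusted p = 1.11e-07). Ikzf3, Bach2 and Ets1 were also separated, with differences of 5.51, 3.63 and 4.8 (limma, adjusted p = 6.54e-10, 1.50e-07 and 2.77e-09).

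The 5 factors that did not pass were at 10 FPKM or more in every library of both populations. Spi1, the Ets factor of myeloid and B lineages, had 98.3, 82.5 and 91.6 FPKM in control B cells, against 76.4, 65 and 87.6 FPKM in control LKS-SLAM cells, at 0.25 ± 0.48 (limma, adjusted p = 0.681). Bcl11a had 96.2, 85 and 93.4 FPKM in control B cells, against 64.8, 59.9 and 76.8 FPKM in control LKS-SLAM cells, at 0.45 ± 0.4 (limma, adjusted p = 0.359). The groups overlapped in Spi1 but not in Bcl11a. Ikzf1, Tcf4 and Klf2 gave differences of 0.49, 0.59 and 0.7 (limma, adjusted p = 0.0833, 0.223 and 0.412). Among the Id proteins, which block E proteins from DNA, Id3 was higher in B cells at 103, 99.2 and 107 FPKM in control B cells, against 28.6, 29.1 and 21.3 FPKM in control LKS-SLAM cells, a difference of 1.94 ± 0.54 (limma, adjusted p = 0.00423). Id1 was lower at 1.62, 0.332 and 0.177 FPKM in control B cells, against 102, 85.7 and 13.1 FPKM in control LKS-SLAM cells, a difference of -4.97 ± 0.63 (limma, adjusted p = 8.85e-07). The E protein gene Tcf3 was higher by 0.93 ± 0.29 (limma, adjusted p = 0.00872), while Tcf12 did not pass, at -0.38 ± 0.21 (limma, adjusted p = 0.125). Without LKS-SLAM replicates 1 and 2 the Tcf3 call was lost (limma, adjusted p = 0.21).

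Surface receptors that guide and regulate mature B cells were gained almost as a whole, with 31 of 32 tested genes higher and none lower (median 4.13). Ms4a1, the Cd20 antigen, had 488, 704 and 738 FPKM in control B cells, against 0.0889, 0.126 and 7.67 FPKM in control LKS-SLAM cells, a difference of 8.17 ± 0.73 (limma, adjusted p = 6.89e-09). Fcmr, the Fc receptor for IgM, had 694, 659.8 and 636 FPKM in control B cells, against 0.0321, 0.121 and 7.34 FPKM in control LKS-SLAM cells, a difference of 8.28 ± 0.68 (limma, adjusted p = 1.86e-09). Fcer2a, the low-affinity IgE receptor of follicular and other mature B cells, had 445, 524 and 478 FPKM in control B cells, against 0.761, 0.746 and 1.85 FPKM in control LKS-SLAM cells, a difference of 7.87 ± 0.55 (limma, adjusted p = 1.38e-10). LKS-SLAM replicate 3 stood above the other 2 in each, yet far below the B libraries. Chemokine receptors for lymphoid organs followed. Cxcr5, which directs B cells into follicles, had 255, 302 and 263 FPKM in control B cells, against 0.613, 0.274 and 1.74 FPKM in control LKS-SLAM cells, a difference of 7.26 ± 0.38 (limma, adjusted p = 1.73e-12). Ccr7, which directs lymphocytes into lymph nodes, had 447, 335 and 279 FPKM in control B cells, against 0.694, 0.0451 and 4.89 FPKM in control LKS-SLAM cells, a difference of 7.32 ± 0.47 (limma, adjusted p = 3.79e-11). Ccr6 had 44.5, 63.7 and 50.3 FPKM in control B cells, against 0.244, 0.24 and 0.331 FPKM in control LKS-SLAM cells, a difference of 5.39 ± 0.31 (limma, adjusted p = 8.84e-12). Cxcr4, the receptor that holds stem cells in marrow, was present in both populations, at 381, 348 and 274 FPKM in control B cells, against 94.1, 112 and 69.5 FPKM in control LKS-SLAM cells, a difference of 1.87 ± 0.38 (limma, adjusted p = 0.000255).

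Receptors for help and survival were also gained. Cd40, the receptor for T cell help, had 83.4, 76.9 and 69.4 FPKM in control B cells, against 0.415, 0.195 and 0 FPKM in control LKS-SLAM cells, a difference of 6.02 ± 0.37 (limma, adjusted p = 1.82e-11). Tnfrsf13c, the receptor for the survival factor BAFF, had 178, 202 and 239 FPKM in control B cells, against 3.92, 4.84 and 8.39 FPKM in control LKS-SLAM cells, a difference of 5.0 ± 0.52 (limma, adjusted p = 6.65e-08). Tlr1 and Tlr9, sensors of microbial products, differed by 5.44 and 4.57 (limma, adjusted p = 1.41e-12 and 3.37e-08). Cd24a, a surface antigen of many progenitors and of B cells, was the 1 member that did not pass, at 245, 281 and 300.4 FPKM in control B cells, against 231, 286 and 324 FPKM in control LKS-SLAM cells, with groups that overlapped. Srpk3, a serine-arginine protein kinase gene, was among the 15 largest gains, at 134, 122 and 116 FPKM in control B cells, against 0.187, 0.155 and 0.846 FPKM in control LKS-SLAM cells, a difference of 6.52 ± 0.44 (limma, adjusted p = 9.76e-11).

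All 13 genes of class II antigen presentation were higher in B cells, with a median of 5.12. Cd74, the invariant chain that guards the class II groove, reached the highest levels of the list, at 13305, 10597 and 10302 FPKM in control B cells, against 187, 149.7 and 545 FPKM in control LKS-SLAM cells, a difference of 5.51 ± 0.81 (limma, adjusted p = 6.49e-06). H2-Aa, whose promoter is printed above, had 5118, 4103 and 3494 FPKM in control B cells, against 101, 77.3 and 203 FPKM in control LKS-SLAM cells, a difference of 5.15 ± 0.78 (limma, adjusted p = 9.99e-06). H2-Eb1 had 2511, 2029 and 1742 FPKM in control B cells, against 37.3, 31.9 and 107 FPKM in control LKS-SLAM cells, a difference of 5.33 ± 0.79 (limma, adjusted p = 7.44e-06). LKS-SLAM cells thus held measurable class II transcripts, most in replicate 3, and the groups did not overlap. Ciita, the co-activator that switches class II genes on, had 80.5, 136 and 108 FPKM in control B cells, against 1.91, 1.25 and 3.44 FPKM in control LKS-SLAM cells, a difference of 5.12 ± 0.47 (limma, adjusted p = 8.43e-09). H2-DMb2 and H2-Ob, chains of the peptide-exchange system, differed by 6.64 and 5.94 (limma, adjusted p = 2.05e-08 and 8.25e-09), and H2-DMa by a smaller 2.12 ± 0.38 (limma, adjusted p = 7.94e-05). Class II genes are close relatives, so that reads shared between copies may have been split in the deposited values.

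**Figure D3:**
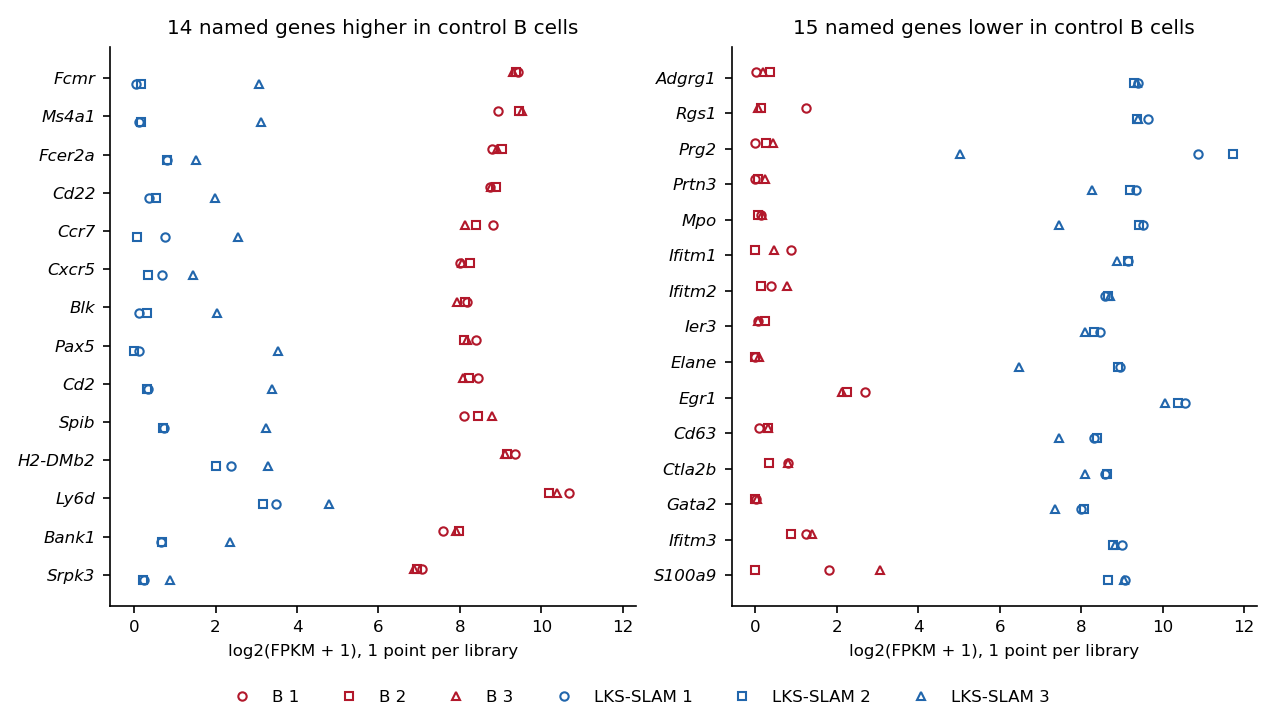
Level in each library, as log2(FPKM + 1), for 14 of the 15 genes most increased and the 15 most decreased, in separate panels, in control B cells, in red, against control LKS-SLAM cells, in blue. Circles, squares and triangles are replicates 1, 2 and 3. LKS-SLAM replicate 3 stands nearer to the B libraries for the increased genes, as for Ms4a1 at 7.67 FPKM, and for Prg2 at 31.5 FPKM it stands below the other 2 LKS-SLAM libraries.

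Precursor B cell genes were mostly low in B cells. Of 12 genes, 10 passed the filter on low values, of which 1 was higher and 5 were lower in B cells (median -1.14). Without LKS-SLAM replicate 3 there were 2 higher and 3 lower (median -0.27). Rag1, which cuts antigen receptor genes, had 0.374, 1.72 and 1.17 FPKM in control B cells, against 0.0253, 0.012 and 2.37 FPKM in control LKS-SLAM cells and overlapped. Dntt, which adds bases at their joints, had 0.0707, 0.279 and 0.209 FPKM in control B cells, against 1.71, 1.79 and 96.2 FPKM in control LKS-SLAM cells, and its call was lost without LKS-SLAM replicate 3 (limma, adjusted p = 0.268) and without B replicate 1 or 3. It was also lost after quantile normalisation, with only the compared groups in the fit and with a replicate block. In LKS-SLAM replicate 3, Vpreb1 and Igll1 of the pre-B receptor stood at 9.66 and 11.9 FPKM. The call of Igll1 was lost under the same 3 settings, with no filter, with library weights, with control libraries alone, and without LKS-SLAM replicate 3 or any 1 of the B libraries. Vpreb3, whose promoter is printed above, was the exception, at 195, 158 and 197 FPKM in control B cells, against 3.73, 3.34 and 20.8 FPKM in control LKS-SLAM cells, a difference of 4.58 ± 0.58 (limma, adjusted p = 9.35e-07). Sox4 and Myb, factors of progenitors, were lower in B cells, with Myb at 5.28, 7.2 and 7.86 FPKM in control B cells, against 136, 136 and 142 FPKM in control LKS-SLAM cells, a difference of -4.18 ± 0.2 (limma, adjusted p = 4.78e-13).

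Genes of antibody secretion and germinal centres were split, with 4 of 10 higher, 3 lower and a median of -0.17, which turned to 0.33 after quantile normalisation. Jchain, which links IgM and IgA chains in plasma cells, was far lower in B cells at 3.24, 2.44 and 5.03 FPKM in control B cells, against 676, 666 and 498 FPKM in control LKS-SLAM cells, a difference of -7.1 ± 1.02 (limma, adjusted p = 4.91e-06). All 3 LKS-SLAM libraries were high. The plasma cell marker list as a whole summed to 255, 220 and 206 FPKM in control B cells, against 774, 753 and 609 FPKM in control LKS-SLAM cells, and Jchain made up most of the sum in LKS-SLAM cells. The part of plasma cells in these values was not tested. Mzb1, a chaperone of antibody chains in B and plasma cells, ran the other way at 205, 168 and 158 FPKM in control B cells, against 17.4, 20.4 and 29.6 FPKM in control LKS-SLAM cells, a difference of 2.95 ± 0.59 (limma, adjusted p = 0.000212). Bcl6, the factor of germinal-centre cells, was higher at 25, 38.4 and 49.4 FPKM in control B cells, against 5.07, 3.9 and 5.14 FPKM in control LKS-SLAM cells, a difference of 2.71 ± 0.56 (limma, adjusted p = 0.00032).

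Genes of B1 and marginal zone B cells were higher in 7 of 12 cases and lower in 3 (median 1.36, and 0.86 without LKS-SLAM replicates 1 and 2). Dtx1, a regulator of Notch signalling, had 49.1, 42.3 and 44.2 FPKM in control B cells, against 0.0234, 0.0111 and 0.697 FPKM in control LKS-SLAM cells, a difference of 5.26 ± 0.27 (limma, adjusted p = 1.08e-12). Cd9 and Plscr1 were lower, with Cd9, a tetraspanin also of platelets and eosinophils, at 7.56, 7.05 and 6.29 FPKM in control B cells, against 115, 107 and 62.8 FPKM in control LKS-SLAM cells, a difference of -3.55 ± 0.45 (limma, adjusted p = 1.04e-06). Cd5, the antigen of B1a and T cells, stood at 1.23, 0.729 and 0.605 FPKM in control B cells, against 0, 0.187 and 1.45 FPKM in control LKS-SLAM cells and overlapped.

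Transcription factors of the stem cell network were lost in B cells. Of 23 tested, 19 were lower, 1 was higher and 3 did not pass, with a median of -3.87. Gata2 had 0.0145, 0 and 0.0286 FPKM in control B cells, against 253, 267 and 163 FPKM in control LKS-SLAM cells, a difference of -7.78 ± 0.45 (limma, adjusted p = 7.91e-12). Erg had 0.0151, 0.0137 and 0.0146 FPKM in control B cells, against 84.5, 82.5 and 97.6 FPKM in control LKS-SLAM cells, a difference of -6.45 ± 0.46 (limma, adjusted p = 2.11e-10). Meis1, the partner of Hox proteins, had 0.042, 0.152 and 0.228 FPKM in control B cells, against 90.9, 76.9 and 72.5 FPKM in control LKS-SLAM cells, a difference of -6.15 ± 0.43 (limma, adjusted p = 1.44e-10). The B libraries were at or near 0 for these, and all 3 LKS-SLAM libraries were high. Hlf, Tal1 and Mecom were listed at 0 in all 3 control B libraries, against 52.2, 49.3 and 61.4 FPKM for Hlf in control LKS-SLAM cells (limma, adjusted p = 5.41e-09, 4.15e-13 and 1.43e-07). Mycn and Nkx2-3 were lower, with differences of -5.41 and -5.54 (limma, adjusted p = 5.75e-09 and 5.90e-07).

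Several factors of the same network were still detected in B cells. Lmo2, a bridging protein of the Tal1 complex, was lower yet still at 179, 151 and 144 FPKM in control B cells, against 537, 525 and 671 FPKM in control LKS-SLAM cells, a difference of -1.86 ± 0.43 (limma, adjusted p = 0.000895). Lyl1, the close relative of Tal1, had 141, 107 and 103 FPKM in control B cells, against 85.9, 79.2 and 119.7 FPKM in control LKS-SLAM cells and did not pass, at 0.31 ± 0.41 (limma, adjusted p = 0.553). Fli1, the Ets relative of Erg, was the 1 member that was higher, at 64.1, 88 and 86.4 FPKM in control B cells, against 42.3, 32.4 and 28.4 FPKM in control LKS-SLAM cells, a difference of 1.19 ± 0.31 (limma, adjusted p = 0.00284). Runx1 and Ldb1 did not pass, at -0.56 and -0.03 (limma, adjusted p = 0.119 and 0.891). Within the pairs Tal1 and Lyl1, and Erg and Fli1, the first was thus at or near 0 in B cells while the other stood above 60 FPKM in every B library.

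Of 26 stem cell receptors and enzymes, 22 were lower, none was higher and 4 did not pass (median -5.55). Adgrg1, an adhesion G protein-coupled receptor of stem cells, was the most decreased named gene at 0.0131, 0.274 and 0.13 FPKM in control B cells, against 667, 628 and 662 FPKM in control LKS-SLAM cells, a difference of -9.17 ± 0.42 (limma, adjusted p = 3.30e-13). Kit, the stem cell factor receptor, had 0.0266, 0.0482 and 0.0877 FPKM in control B cells, against 125, 116 and 133 FPKM in control LKS-SLAM cells, a difference of -6.9 ± 0.33 (limma, adjusted p = 5.17e-13). The groups were far apart in both. Procr, the endothelial protein C receptor, had 0, 0 and 0.0666 FPKM in control B cells, against 72.4, 76.5 and 77.8 FPKM in control LKS-SLAM cells, a difference of -6.23 ± 0.64 (limma, adjusted p = 4.55e-08). Cd34 had 0.0973, 0.0177 and 0 FPKM in control B cells, against 71.1, 61.8 and 222 FPKM in control LKS-SLAM cells and Flt3, the cytokine receptor of multipotent progenitors, had 0.319, 0.786 and 0.479 FPKM in control B cells, against 19.9, 23.5 and 122 FPKM in control LKS-SLAM cells, both highest in LKS-SLAM replicate 3. Their differences were -6.59 and -4.72 (limma, adjusted p = 1.82e-09 and 2.76e-06). Itga2b and Vwf, genes shared with megakaryocytes, were lowest in that replicate, with Itga2b at 1.73, 0.629 and 0.982 FPKM in control B cells, against 151, 122 and 33.9 FPKM in control LKS-SLAM cells, a difference of -5.39 ± 0.38 (limma, adjusted p = 2.07e-10). Of the 4 that did not pass, Txnip stood at 421, 447 and 355 FPKM in control B cells, against 326, 338 and 189 FPKM in control LKS-SLAM cells, and Thy1 at 0.891, 0.837 and 0.792 FPKM in control B cells, against 6.19, 4.14 and 15 FPKM in control LKS-SLAM cells. Neither Txnip nor Thy1 overlapped between the groups.

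The Hox genes were lower in 17 of the 18 that passed the filter, of 39 in the table, with a median of -2.76. Hoxa9 was listed at 0 in all 3 control B libraries, against 42.1, 43 and 41.9 FPKM in control LKS-SLAM cells (limma, adjusted p = 3.17e-12). Hoxa5 had 0, 0.0479 and 0.104 FPKM in control B cells, against 36.5, 36.3 and 31 FPKM in control LKS-SLAM cells, a difference of -5.08 ± 0.54 (limma, adjusted p = 7.37e-08). Hoxb4, studied for stem cell expansion, kept a low level at 3.33, 2.84 and 2.43 FPKM in control B cells, against 10.8, 7.61 and 8.58 FPKM in control LKS-SLAM cells, a difference of -1.36 ± 0.44 (limma, adjusted p = 0.0121), and this call was lost after quantile normalisation and without LKS-SLAM replicates 1 and 2 (limma, adjusted p = 0.122). The called members lay in the A and B clusters and, for Hoxc6, in the C cluster, where the call of Hoxc6 was lost without LKS-SLAM replicate 3. None of the 9 Hoxd genes passed the filter.

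Genes of cell division were almost all lower in B cells, 33 of 35 with a median of -2.72. Without LKS-SLAM replicates 1 and 2 the median was -2.19. The list summed to 322, 322 and 312 FPKM in control B cells, against 1800, 1839 and 1150 FPKM in control LKS-SLAM cells. Mki67, present in dividing cells, had 0.12, 0.391 and 0.393 FPKM in control B cells, against 40.3, 43.7 and 32.1 FPKM in control LKS-SLAM cells, a difference of -4.93 ± 0.51 (limma, adjusted p = 5.53e-08). Top2a, which untangles replicated DNA, had 0.553, 0.834 and 0.859 FPKM in control B cells, against 64.5, 61.3 and 24.4 FPKM in control LKS-SLAM cells, a difference of -4.75 ± 0.55 (limma, adjusted p = 2.46e-07). The LKS-SLAM libraries were well above the B libraries, and replicate 3 was the lowest of them in most mitotic genes. The replication helicase subunits were lower by less, with Mcm6 at 20.7, 21.4 and 21.2 FPKM in control B cells, against 128, 126 and 142 FPKM in control LKS-SLAM cells, a difference of -2.59 ± 0.32 (limma, adjusted p = 5.92e-07). Cdt1 and Ccne1 did not pass, and Cdt1, which loads the helicase, stood at 62.6, 48.9 and 42.2 FPKM in control B cells, against 51.5, 50.6 and 28.1 FPKM in control LKS-SLAM cells. Among cell cycle inhibitors and their targets, 2 of 12 genes were higher and 8 lower. Cdkn1b, the inhibitor of resting lymphocytes, was higher at 88.9, 99.5 and 116 FPKM in control B cells, against 29.9, 29.4 and 38 FPKM in control LKS-SLAM cells, a difference of 1.62 ± 0.25 (limma, adjusted p = 1.30e-05). Cdkn1c, the inhibitor of quiescent stem cells, was lower at 0.492, 0.636 and 0.809 FPKM in control B cells, against 22.2, 28.1 and 10.8 FPKM in control LKS-SLAM cells, a difference of -3.6 ± 0.7 (limma, adjusted p = 0.000171). Cdkn1a was lower at 0.851, 0.61 and 1.07 FPKM in control B cells, against 118, 91 and 61.1 FPKM in control LKS-SLAM cells, a difference of -5.58 ± 0.73 (limma, adjusted p = 1.47e-06). Cdk6 and Ccnd1 were lower, with differences of -2.93 and -3.23 (limma, adjusted p = 6.52e-08 and 5.89e-10).

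Immediate early genes, which stimulation and cell handling switch on within minutes, were lower in 17 of 22 cases (median -3.51). Egr1 had 5.43, 3.76 and 3.36 FPKM in control B cells, against 1505, 1334 and 1066 FPKM in control LKS-SLAM cells, a difference of -7.98 ± 0.84 (limma, adjusted p = 6.53e-08). Nr4a1 had 24.8, 9.25 and 8.1 FPKM in control B cells, against 1341, 1076 and 1351 FPKM in control LKS-SLAM cells, a difference of -6.54 ± 1.0 (limma, adjusted p = 1.08e-05). Fos had 209.5, 21.8 and 22.5 FPKM in control B cells, against 2059, 2443 and 2256 FPKM in control LKS-SLAM cells, a difference of -5.54 ± 1.03 (limma, adjusted p = 0.000102). Control B replicate 1 was well above the other 2 B libraries in Fos, yet below all LKS-SLAM libraries. Ier3, a survival gene of the same group, was among the 15 largest losses at 0.0496, 0.182 and 0.0487 FPKM in control B cells, against 351, 316 and 271 FPKM in control LKS-SLAM cells, a difference of -8.16 ± 0.79 (limma, adjusted p = 2.04e-08). Of the 5 members that did not pass, Jund stood at 507, 203 and 196 FPKM in control B cells, against 689.9, 649 and 759 FPKM in control LKS-SLAM cells, with groups that did not overlap.

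Imprinted genes, expressed from 1 parental copy and known to be active in resting stem cells, were lower in 7 of the 9 that passed the filter, with a median of -1.97. Grb10, an adaptor that restrains growth factor receptors, had 0, 0 and 0.00954 FPKM in control B cells, against 17.8, 14.6 and 8.23 FPKM in control LKS-SLAM cells, a difference of -3.8 ± 0.23 (limma, adjusted p = 1.33e-11). Meg3, a long non-coding RNA, had 0.0117, 0.0353 and 0.00774 FPKM in control B cells, against 43.6, 35.9 and 0.715 FPKM in control LKS-SLAM cells, a difference of -3.8 ± 0.77 (limma, adjusted p = 0.000276). LKS-SLAM replicate 3 held almost none of it, and without replicates 1 and 2 its call was lost (limma, adjusted p = 0.357) and the list had 4 lower members and a median of -0.75. The stroma and endothelium list also separated these libraries, at 378 and 457 FPKM in replicates 1 and 2, with 125 FPKM in replicate 3, and its part in the imprinted genes was not tested.

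Of the 15 genes named for the largest losses, Mpo, Elane, Prtn3 and Prg2 encode granule proteins of myeloid cells, a grouping made after their values were seen. Mpo, the neutrophil peroxidase that early progenitors also transcribe, had 0.0939, 0.0512 and 0.111 FPKM in control B cells, against 733, 687 and 176 FPKM in control LKS-SLAM cells, a difference of -8.69 ± 0.82 (limma, adjusted p = 1.32e-08). Elane and Prtn3, neutrophil proteases, differed by -8.08 and -8.84 (limma, adjusted p = 9.33e-09 and 1.15e-11). Prg2, the major basic protein of eosinophils, had 0, 0.192 and 0.339 FPKM in control B cells, against 1863, 3398 and 31.5 FPKM in control LKS-SLAM cells, a difference of -8.98 ± 1.45 (limma, adjusted p = 2.14e-05). Genes were named only where the groups did not overlap, and LKS-SLAM replicate 3 was far below the other 2 in Prg2. The neutrophil list was at 0 in 9, 6 and 0 of 14 genes in the control B libraries and detected in every control LKS-SLAM library, and all 14 of its genes were lower in B cells. The part of mature myeloid cells in these values was not tested. Without LKS-SLAM replicates 1 and 2 the Mpo difference was -7.35 (limma, adjusted p = 5.69e-05) and that of Prg2 -4.8 (limma, adjusted p = 0.0317). Ifitm1, Ifitm2 and Ifitm3, membrane proteins that block virus entry and are known as constitutive in stem cells, were lower as well. Ifitm3 had 1.38, 0.828 and 1.63 FPKM in control B cells, against 512, 439 and 457 FPKM in control LKS-SLAM cells, a difference of -7.7 ± 0.73 (limma, adjusted p = 1.65e-08), and these neighbouring copies may share reads.

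**Figure D4:**
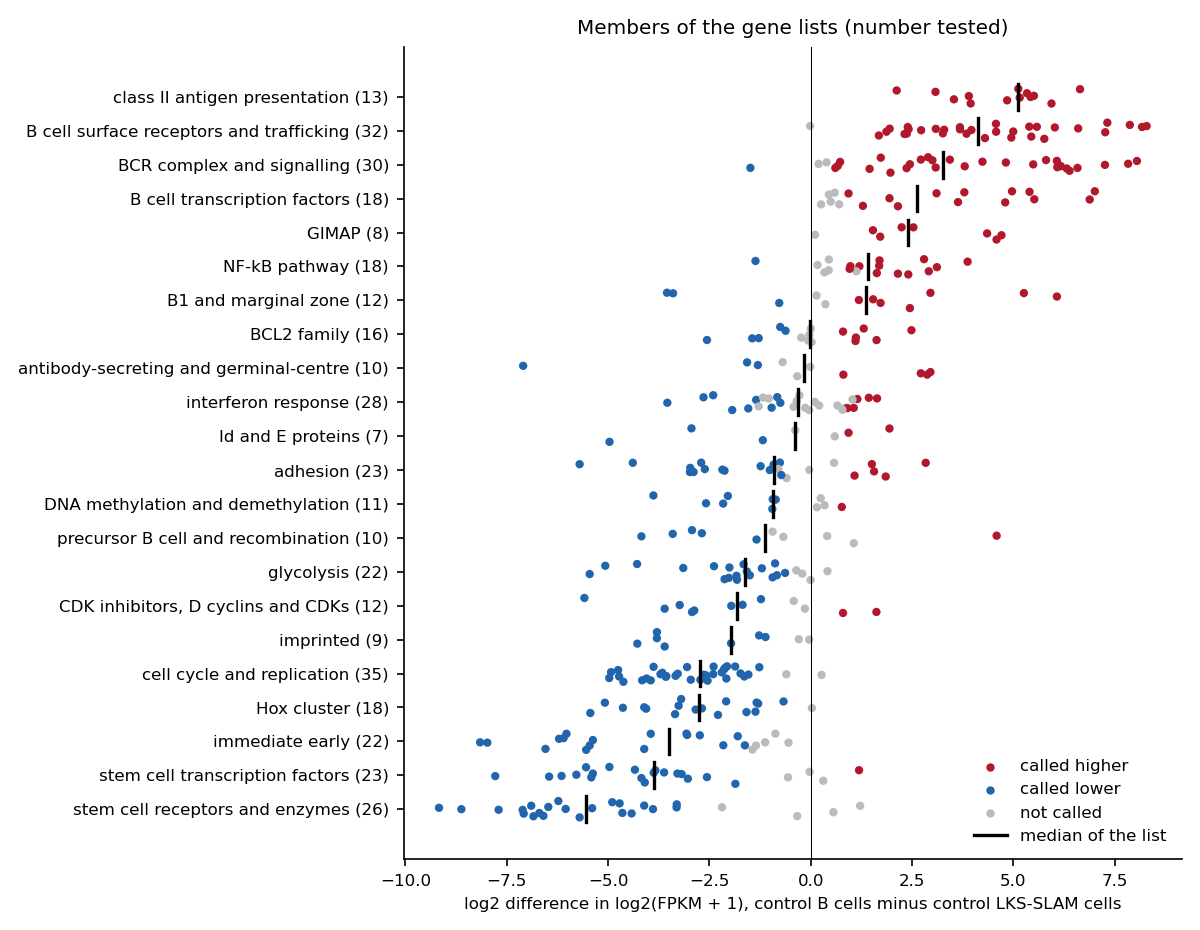
Difference of each tested gene (control B minus control LKS-SLAM, log2(FPKM + 1)) by gene list, 1 point per gene, with a bar at each list's median. The lists of the B cell receptor, B cell transcription factors, B cell surface receptors and class II have medians right of 0, from 2.63 to 5.12. The stem cell, Hox and cell cycle lists have medians left of it, from -5.55 to -2.72. Of the other B cell lists, B1 and marginal zone has a median of 1.36, antibody-secreting -0.17 and precursor -1.14.

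Survival genes did not move in 1 direction. Of 16 BCL2 family genes, 6 were higher and 5 lower, with a median of -0.02. Bcl2 itself had 20.8, 22.1 and 23.8 FPKM in control B cells, against 26.8, 21.7 and 18 FPKM in control LKS-SLAM cells and overlapped, and Mcl1 had 306, 312 and 345 FPKM in control B cells, against 338, 350.3 and 300.4 FPKM in control LKS-SLAM cells and overlapped too. Bcl2l1, which encodes the survival protein BCL-XL, was lower at 1.65, 2.18 and 2.04 FPKM in control B cells, against 15.5, 14.8 and 19.2 FPKM in control LKS-SLAM cells, a difference of -2.56 ± 0.37 (limma, adjusted p = 5.32e-06). Pmaip1, a killer protein of the family, was higher by 1.31 ± 0.31 (limma, adjusted p = 0.00129). Genes of NF-kB signalling were higher in 12 of 18 cases and lower in 1 (median 1.41). Traf5, an adaptor of TNF receptors, had 87.8, 86.7 and 77.9 FPKM in control B cells, against 4.77, 5.24 and 4.48 FPKM in control LKS-SLAM cells, a difference of 3.87 ± 0.21 (limma, adjusted p = 2.26e-12). Nfkb2 and Relb, of the BAFF-driven branch, were higher, with Relb at 68.2, 49.2 and 49.4 FPKM in control B cells, against 4.05, 5.65 and 7.07 FPKM in control LKS-SLAM cells, a difference of 3.11 ± 0.27 (limma, adjusted p = 3.62e-09). The single lower member was Tnfaip3, the inhibitor of the pathway, at 17.1, 18.2 and 18.1 FPKM in control B cells, against 48.6, 34.3 and 63.2 FPKM in control LKS-SLAM cells, a difference of -1.36 ± 0.39 (limma, adjusted p = 0.00567). Of 8 GIMAP genes, GTPases of lymphocyte survival, 7 were higher (median 2.39), with Gimap3 at 385, 308 and 314 FPKM in control B cells, against 8.44, 9 and 21.4 FPKM in control LKS-SLAM cells, a difference of 4.7 ± 0.53 (limma, adjusted p = 1.96e-07).

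Adhesion genes were lower in 14 of 23 cases and higher in 5 (median -0.92, and -0.69 without LKS-SLAM replicates 1 and 2). The share of higher genes was near the 18.9% of all genes. Itga5, a fibronectin receptor chain, was lower at 0.116, 0.105 and 0.272 FPKM in control B cells, against 28.8, 25.4 and 17.4 FPKM in control LKS-SLAM cells, a difference of -4.39 ± 0.23 (limma, adjusted p = 2.22e-12). Itgb1, its partner chain, was lower at 6.49, 10.3 and 11.5 FPKM in control B cells, against 73.9, 61.8 and 61.3 FPKM in control LKS-SLAM cells, a difference of -2.7 ± 0.45 (limma, adjusted p = 2.91e-05). Itga4, another chain that binds fibronectin, was higher at 53.3, 86.8 and 80.5 FPKM in control B cells, against 32.7, 31.4 and 36.7 FPKM in control LKS-SLAM cells, a difference of 1.08 ± 0.33 (limma, adjusted p = 0.00767). Its call was lost without LKS-SLAM replicates 1 and 2 (limma, adjusted p = 0.131). The lymphocyte homing chain Itgb7 was higher at 190.1, 158 and 142 FPKM in control B cells, against 18.9, 17.3 and 31.8 FPKM in control LKS-SLAM cells, a difference of 2.84 ± 0.33 (limma, adjusted p = 2.75e-07). Icam2 was also higher, by 1.56 ± 0.19 (limma, adjusted p = 4.27e-07), while Icam1 did not pass, at -0.03 ± 0.29 (limma, adjusted p = 0.938).

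Glycolysis genes were lower in 18 of 22 cases and higher in none (median -1.62). The hexokinase Hk3 had 0.393, 0.281 and 0.361 FPKM in control B cells, against 48.2, 45.4 and 39.2 FPKM in control LKS-SLAM cells, a difference of -5.07 ± 0.36 (limma, adjusted p = 2.07e-10). Ldhb, a lactate dehydrogenase chain, had 0.721, 0.0412 and 0.314 FPKM in control B cells, against 63.4, 57.6 and 51.6 FPKM in control LKS-SLAM cells, a difference of -5.45 ± 0.72 (limma, adjusted p = 1.59e-06). Ldha, the other chain, differed by less, at 121, 95.9 and 101 FPKM in control B cells, against 446, 421 and 287 FPKM in control LKS-SLAM cells, a difference of -1.83 ± 0.26 (limma, adjusted p = 4.67e-06). Of 77 oxidative phosphorylation subunits, 29 were lower and 1 was higher (median -0.52), a share near the 36.7% of all genes that were lower. Without LKS-SLAM replicates 1 and 2, 5 subunits were lower, against 3217 of all 14083 genes. Cytosolic ribosomal protein genes summed to 183068, 114425 and 110519 FPKM in control B cells, against 152008, 162803 and 164312 FPKM in control LKS-SLAM cells. Control B replicate 1 thus stood above all LKS-SLAM libraries, and replicates 2 and 3 below them. Of 83 such genes tested, 13 were lower and none was higher, with a median of -0.27, close to that of all genes. There were 8 lower without LKS-SLAM replicate 3, and 3 without replicates 1 and 2. Among 11 genes of DNA methylation, 7 were lower and 1 higher (median -0.94). Uhrf1, which guides Dnmt1 to newly copied DNA, had 1.89, 2.05 and 2.47 FPKM in control B cells, against 48.8, 50.5 and 37.1 FPKM in control LKS-SLAM cells, a difference of -3.88 ± 0.47 (limma, adjusted p = 4.47e-07). Tet1 was lower, at -2.58 ± 0.29 (limma, adjusted p = 2.01e-07), while Tet2 did not pass, at 0.25 ± 0.24 (limma, adjusted p = 0.415). Interferon response genes were mixed, 5 higher and 9 lower of 28, shares near the 18.9% and 36.7% of all genes, and their median of -0.31 became 0.37 after quantile normalisation. Ifi44 was lower at 0.0325, 0.177 and 0.0803 FPKM in control B cells, against 13.3, 8.81 and 13.7 FPKM in control LKS-SLAM cells, a difference of -3.54 ± 0.6 (limma, adjusted p = 4.09e-05), and Stat2 was higher by 1.63 ± 0.29 (limma, adjusted p = 5.53e-05).

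To see which of these genes separate B cells from other mature blood cells, the control B libraries were compared with the mean of the control CD4, CD8 and myeloid groups. The same B libraries enter both comparisons, so that their results are not independent and are given side by side. Here 5106 of 14083 genes (36.3%) were called, 2779 (19.7%) higher and 2327 (16.5%) lower in B cells, with a median of 0.04. The control CD8 libraries held the 10 B cell markers at 4.82 to 6.97% of their mean in B cells, and 5700 genes were called when, by a choice not planned in advance, CD4 and myeloid cells alone were the comparison. Of the B cell receptor list, 28 of 30 genes were higher and 1 lower (median 3.46). Of the B cell transcription factors, 16 of 18 were higher (median 2.72), of the surface list 27 of 32 (median 2.72) and of class II 12 of 13 (median 4.85). Of the stem cell receptors, 2 of 26 were higher and 5 lower (median -0.17), and none of the 18 Hox genes was called (median -0.04). Of the 35 cell cycle genes 1 was higher and 1 lower (median -0.04).

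Individual genes differed in their levels in the other blood cells, whose means are given with the SD over 2 CD4, 3 CD8 and 2 myeloid libraries. Ly6d, a surface antigen of B lineage cells, led the gains, averaging 1379 ± 243 FPKM in control B cells (SD, n = 3), against 4.63 ± 1.02 FPKM in CD4 cells, 57.8 ± 27.9 FPKM in CD8 cells and 3.75 ± 3 FPKM in myeloid cells. Its difference was 6.97 ± 0.55 (limma, adjusted p = 4.12e-09). Scd1, a desaturase of fatty acids, averaged 264 ± 53.2 FPKM in control B cells, against 1.2 ± 0.181, 15.2 ± 6.81 and 0.675 ± 0.42 FPKM in CD4, CD8 and myeloid cells. Its difference was 6.1 ± 0.43 (limma, adjusted p = 1.20e-09). Neither is a component of the B cell receptor, and both stood among the 10 largest gains, as did Cd79a, Cd79b, Ms4a1, Fcmr, Fcer2a, Fcrla and Vpreb3. Cd81 and Plcg2, which did not pass against LKS-SLAM cells, were higher than the mean of the other blood groups by 3.35 ± 0.32 and 3.01 ± 0.46 (limma, adjusted p = 4.13e-08 and 2.47e-05). Bcl11a, Spi1, Cd24a and Lyl1 were also higher than that mean, with Bcl11a at 91.5 ± 5.8 FPKM in control B cells, against 0.663 ± 0.213, 5.67 ± 2.47 and 6.28 ± 0.0601 FPKM in CD4, CD8 and myeloid cells. A difference from the mean does not show that B cells stood above each group, and the single groups are not given for Spi1, Cd24a and Lyl1. The differences of Bcl11a, Spi1, Cd24a and Lyl1 from the mean were 4.44, 1.81, 3.73 and 2.73 (limma, adjusted p = 2.88e-09, 0.00133, 4.00e-07 and 2.64e-06). None of these 6 genes, Cd81 and Plcg2 included, had passed against LKS-SLAM cells, which does not show equal levels. Lmo2 was lower than in LKS-SLAM cells but higher than the mean of the other blood groups, by 4.06 ± 0.36 (limma, adjusted p = 2.16e-08).

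Ccr7, gained over LKS-SLAM cells, was also high in T cells. It was higher than the mean of other blood cells by 2.27 ± 0.4 (limma, adjusted p = 0.000103), with 354 ± 85.3 FPKM in control B cells, against 545 ± 11.3, 390.5 ± 23.3 and 0.88 ± 1 FPKM in CD4, CD8 and myeloid cells. The 10 largest losses against other blood cells were S100a4, Fyb, Lcp2, Slfn1, Cd3g, Sema4a, Ly6c2, Arl4c, Tnfrsf1a and Prkch, of which Cd3g is a T cell receptor chain and Lcp2 and Fyb are adaptors of T cells and other blood cells. Lcp2 averaged 0.218 ± 0.0826 FPKM in control B cells, against 96.6 ± 2.22, 70.6 ± 4.62 and 110.4 ± 1.86 FPKM in CD4, CD8 and myeloid cells, a difference of -6.24 ± 0.71 (limma, adjusted p = 5.62e-07). Prkch, a protein kinase C gene, averaged 0.234 ± 0.0984 FPKM in control B cells, against 74.4 ± 4.56, 86.9 ± 6.31 and 27 ± 2.07 FPKM in those cells, a difference of -5.53 ± 0.72 (limma, adjusted p = 2.84e-06). Tnfrsf1a, a receptor for TNF, was likewise lower, with a difference of -5.54 ± 0.57 (limma, adjusted p = 1.24e-07). Itgb1 and Itgal were lower than the mean of the other blood groups, with differences of -3.46 and -2.19 (limma, adjusted p = 3.50e-07 and 4.20e-05), and 12 of 23 adhesion genes were lower and 2 higher. Interferon response genes were lower in 17 of 28 cases and higher in 1 (median -1.20), and glycolysis genes lower in 13 of 22 and higher in 2 (median -0.72).

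**Figure D5:**
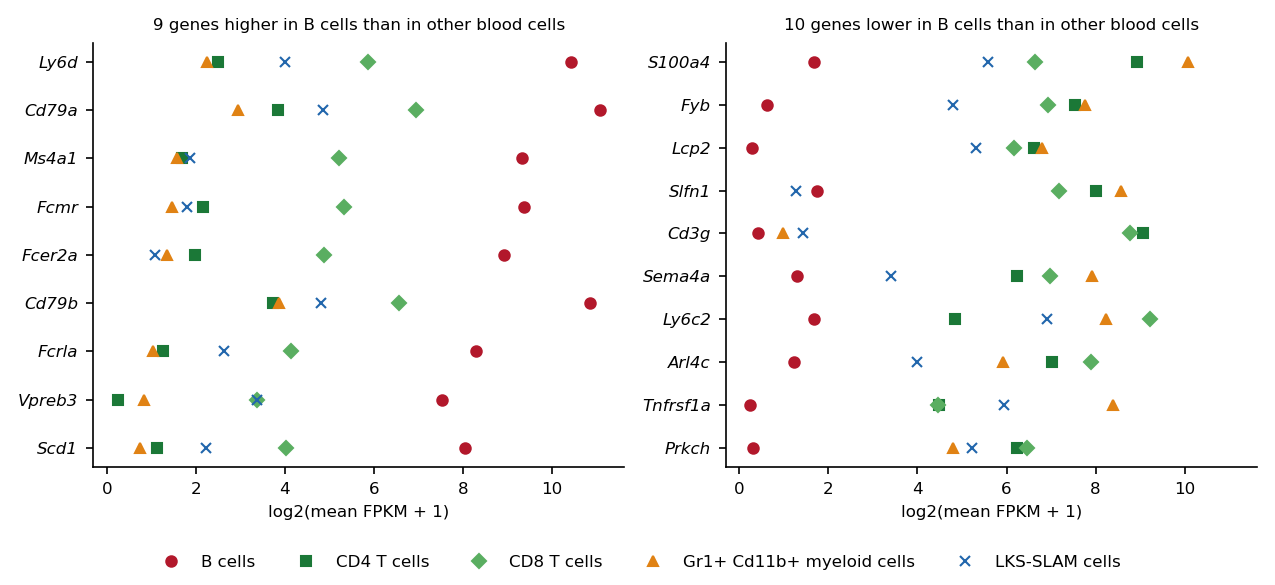
Mean level, as log2(mean FPKM + 1), in control B, CD4, CD8, myeloid and LKS-SLAM cells for 9 of the 10 genes most increased and the 10 most decreased in control B cells against the mean of the 3 other blood groups. For the increased genes the B cell means stand alone at the high end, as for Ly6d at 1379 FPKM, and for decreased genes such as Lcp2 and Prkch the LKS-SLAM means lie far above those of B cells.

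The same contrast was made in the rEC groups, which share no library with the control groups. Of 14083 genes, 7381 (52.4%) were called, 2849 (20.2%) higher and 4532 (32.2%) lower in rEC B cells than in rEC LKS-SLAM cells, and after quantile normalisation 4079 were higher and 3556 lower. Of the genes called in each contrast, 6272 were called in both with the same sign, which is 85.0% of the rEC calls and 80.1% of the control calls, and 5 had opposite signs. Both contrasts share 1 fit and its spread. Among rEC B libraries, replicate 1 held T cell markers at a sum of 2257 FPKM, against 15.3 and 20.1 FPKM in replicates 2 and 3, and its B cell marker sum was 2064 FPKM, against 7042 and 8412 FPKM. Among rEC LKS-SLAM libraries, replicate 2 had a marker sum of 211 FPKM, against 1322 and 1490 FPKM in replicates 1 and 3. Without these 2 libraries 7911 genes (56.2%) were called, 2889 (20.5%) higher and 5022 (35.7%) lower, and 6463 shared the sign of the control call.

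In rEC cells the B cell and stem cell lists moved in the directions seen in control cells. Of the B cell receptor list, 26 of 30 genes were higher and 1 lower, of the transcription factors 13 of 18 were higher, of the surface list 31 of 32 and of class II all 13. Of stem cell factors 19 of 23 were lower and 1 higher, of stem cell receptors 22 of 26 were lower, and of cell cycle genes 33 of 35 (median -2.42). The summed cell cycle list stood at 362, 297 and 313 FPKM in rEC B cells, against 763, 4112 and 469 FPKM in rEC LKS-SLAM cells. Without rEC B replicate 1 and rEC LKS-SLAM replicate 2, 30 cell cycle genes were lower and 2 higher (median -1.44). Pax5 had 93.1, 310.3 and 578 FPKM in rEC B cells, against 0.762, 0.0546 and 0 FPKM in rEC LKS-SLAM cells, a difference of 7.71 ± 0.7 (limma, adjusted p = 9.99e-09). Ms4a1 had 143, 713 and 711 FPKM in rEC B cells, against 0.338, 0.415 and 0.0922 FPKM in rEC LKS-SLAM cells, a difference of 8.36 ± 0.73 (limma, adjusted p = 5.48e-09). Replicate 1 was the lowest rEC B library in both genes, and no groups overlapped. Gata2 had 0.322, 0 and 0.0274 FPKM in rEC B cells, against 274, 54 and 361 FPKM in rEC LKS-SLAM cells, a difference of -7.31 ± 0.45 (limma, adjusted p = 2.08e-11). Kit had 0.163, 0.0261 and 0.0251 FPKM in rEC B cells, against 155, 63.5 and 109 FPKM in rEC LKS-SLAM cells, a difference of -6.59 ± 0.33 (limma, adjusted p = 1.01e-12).

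Immediate early genes were lower in 12 of 22 cases in the rEC contrast (median -1.90), where the control contrast gave 17 of 22 (median -3.51). The summed list stood at 940.1, 2294 and 1268 FPKM in rEC B cells, against 11647, 766 and 10770 FPKM in rEC LKS-SLAM cells. Without rEC B replicate 1 and rEC LKS-SLAM replicate 2, 17 of 22 were lower (median -2.82). The difference between the contrasts was tested gene by gene as an interaction, the rEC difference minus the control difference. It called 25 of 14083 genes (0.178%), 24 higher (0.170%) and 1 lower (0.00710%), while 814 genes had an unadjusted p below 0.05. No gene of the B cell, class II, stem cell, Hox, cell cycle or immediate early lists was among them. Of the marker lists, 3 neutrophil genes (Retnlg, Mmp8 and Mmp9) and 1 basophil gene (Cd200r3) were called. All 4 stood below 2 FPKM in every rEC B, rEC LKS-SLAM and control B library and were higher in most control LKS-SLAM libraries. Jchain, the plasma cell gene, had 0.426, 1.23 and 1.64 FPKM in rEC B cells, against 120.1, 32.1 and 0.473 FPKM in rEC LKS-SLAM cells, and its interaction of 3.94 ± 1.44 did not pass (limma, adjusted p = 0.614). Mpo had 0.236, 0.0554 and 0.106 FPKM in rEC B cells, against 20.5, 60.2 and 0.109 FPKM in rEC LKS-SLAM cells, and its interaction of 5.36 ± 1.15 did not pass (limma, adjusted p = 0.0612). Without rEC B replicate 1 and rEC LKS-SLAM replicate 2 the interaction called 396 genes (2.81%), 314 (2.23%) higher and 82 (0.582%) lower.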

How the data were processed

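RNA of sorted mouse cells was sequenced as paired reads of 51 bases. Per the submitters' processing notes the build was mm10, and the tools named are Cufflinks 2.2.1, TopHat2 2.1.0, Trimmomatic 0.36, FastQC 0.11.5 and bcl2fastq 2.17. The authors deposited 1 FPKM value per gene and library, with no counts, so that no count model, counting interval or limit of detection could be given. Of 30 libraries, 29 in 11 groups entered the fit, and 1 library (47G1 B220+) was left out. It is annotated as wild type while its title names a clone, so that its group could not be told. A gene was kept where 2 or more libraries reached 1 FPKM, and tested on log2(FPKM + 1) with limma 3.58.1 in R 4.3.3 (1 mean per group, moderated variance with a trend). Tests were two-sided, with Benjamini-Hochberg adjustment over all 14083 genes tested and a threshold of 0.05. No 2 libraries held identical values.

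Named genes were the 15 largest called differences each way (10 each way against other blood cells) with no overlap between libraries and the larger of the 2 group means at 5 FPKM or above, together with members of gene lists. Genes, lists and tests were chosen with earlier results of these data known. Alternatives were a pseudocount of 0.1, no filter, a filter of 5 FPKM, quantile normalisation, library weights, fewer groups in the fit, a replicate block and leaving out libraries. Scripts were tested on simulated data. Some genes are not reported here, though list counts include them. Positions are from GENCODE vM21, matched by symbol, and promoters from RefSeq. Reads had no strand, so that overlapping genes cannot be told apart.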

Additional observations from a re-analysis of the deposited data

Results flagged for a closer look

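For 4 genes the difference between B cells and LKS-SLAM cells was not the same in rEC and control cells by a test of the difference itself (the interaction in limma, adjusted over all genes tested), and the cause was not tested. They are the members of the gene and marker lists among the 25 genes that this test called. The remaining calls lie outside the lists and are not described here. Retnlg, a neutrophil gene, had 0.106, 0.542 and 0.103 FPKM in rEC B cells, against 1.97, 0.135 and 0.105 FPKM in rEC LKS-SLAM cells. In control cells it had 0, 0.101 and 1.05 FPKM in B cells, against 156, 181 and 90.8 FPKM in LKS-SLAM cells, and the interaction was 6.39 ± 0.66 (adjusted p = 3.79e-05). Mmp9, a neutrophil protease, had 0.172, 0.247 and 0.07 FPKM in rEC B cells, against 1.63, 0.111 and 0.101 FPKM in rEC LKS-SLAM cells. In control cells it had 0.119, 0.0403 and 0.176 FPKM in B cells, against 5.91, 7.58 and 15 FPKM in LKS-SLAM cells, and the interaction was 2.8 ± 0.53 (adjusted p = 0.0333). Mmp8, another neutrophil protease, had an interaction of 2.63 ± 0.49 (adjusted p = 0.0293), with 1.54, 0.0489 and 0 FPKM in rEC LKS-SLAM cells, against 5.43, 7.11 and 11.3 FPKM in control LKS-SLAM cells. These 3 genes were high in all 3 control LKS-SLAM libraries, and replicate 3 was the highest for Mmp8 and Mmp9. Cd200r3, a basophil and mast cell receptor, had an interaction of 2.5 ± 0.35 (adjusted p = 0.00173), with 0, 0.0424 and 0 FPKM in rEC LKS-SLAM cells, against 6.53, 4.37 and 1.8 FPKM in control LKS-SLAM cells. The summed neutrophil list was 719, 194 and 360.3 FPKM in rEC LKS-SLAM cells, against 3873, 3290 and 2278 FPKM in control LKS-SLAM cells, and its part in these interactions was not tested.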

How the results depend on the processing

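The number of genes called between control B and control LKS-SLAM cells was 7832, and it ran from 5292 to 10622 over all alternatives, never more than 1.5 times away. All 30 named genes of that comparison kept their direction and their call in all 480 values computed for them. They had been chosen from the same libraries as the largest called differences without overlap, so that this result was largely set by the choice. Between B cells and other blood cells 5106 genes were called, 9475 with library weights, 8093 with only the compared groups in the fit and 4002 to 4868 with each library left out in turn. In the rEC contrast 7381 genes were called, 2001 with only its own groups in the fit and 6372 to 7669 with each library left out. The interaction was the least stable count. Its 25 calls became 50 with no filter, 11 with a filter of 5 FPKM, 7 after quantile normalisation, 3715 with library weights, 4 with only the compared groups, 55 without control LKS-SLAM replicates 1 and 2, and 396 without the 2 rEC libraries that stood apart. Leaving out single libraries gave 7 to 426 calls: 12 and 14 without rEC B replicates 1 and 2, 92 and 426 without rEC LKS-SLAM replicates 1 and 2, 8, 11 and 12 without control B replicates 1, 2 and 3, and 13, 7 and 176 without control LKS-SLAM replicates 1, 2 and 3. The cause of these changes was not tested. Where both control LKS-SLAM replicates 1 and 2 were left out, the lone library was assumed to vary like the other groups. Omitting libraries that stood apart and comparing with CD4 and myeloid cells alone were chosen after seeing the data. The labels do not say whether replicate numbers pair the libraries. Correlations of deviations from the group mean were 0.0116, 0.00486 and 0.0618 for the same number, against -0.0614 to 0.0392 for different numbers. With 3 libraries a group these values cannot decide whether libraries were paired. With a replicate block 7677 genes were called, 2533 higher and 5144 lower, of which 7042 were among the 7832. FPKM give relative depth only, so that values at or near 0 carry no limit of detection.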
